A study of Mus musculus with 12 samples.

Results

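The genes described here are 10 transcription factors that specify dendritic cell (DC) subsets, Irf8, Irf4, Batf3, Id2, Zbtb46, Spi1, Bcl6, Tcf4, Klf4 and Nfil3, chosen by name from the 55401 genes of the counts table. All 10 have a row in the table, and 9 of them passed the filter on low counts, under which a gene needed a log2 CPM above 0 (CPM, counts scaled to library size) in at least 2 libraries. Tcf4 was listed at 0 in every library. The data are bulk RNA sequencing of Sp37A3, an immature DC line derived from mouse spleen and grown with GM-CSF and M-CSF. CtrV cells, which the labels call SiglecE-expressing, carry the empty vector, and the cells labelled EKO are a pool of single clones made with a CRISPR guide against Siglece, the gene of the inhibitory receptor Siglec-E. Each line was left unpulsed or pulsed with ovalbumin protein (OVA), with 3 libraries in each of the 4 groups, and all 12 libraries come from cells stimulated with LPS and collected after a processing time of 24 h. No library comes from cells without LPS, so the levels below are levels after stimulation. Because the EKO cells are a pool of clones, what belongs to the loss of Siglec-E and what belongs to the clones cannot be told apart.

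DCs arise from bone marrow progenitors under a small set of transcription factors that act in combination and often against each other. IRF8 with BATF3 directs the type 1 conventional DC (cDC1), which cross-presents antigen to CD8 T cells, whereas IRF4 and KLF4 act in the type 2 conventional DC (cDC2), which mainly presents to CD4 T cells. ID2 blocks the E proteins, among them TCF4, the factor that defines the plasmacytoid DC (pDC). ZBTB46 marks conventional DCs as a whole, PU.1 (encoded by Spi1) is needed by nearly all myeloid cells, BCL6 is a repressor used by conventional DCs, and NFIL3 acts upstream of ID2 in progenitors that become cDC1.

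In both lines the conventional DC factors Id2, Spi1, Irf4, Irf8 and Zbtb46 were well detected and Tcf4 was not seen. EKO-labelled cells had more Irf8, Batf3, Nfil3 and Bcl6 mRNA than CtrV cells and less Id2 and Klf4 mRNA, by 1.45- to 2.75-fold upward and 1.73- to 2.72-fold downward. The values for Irf4, Spi1 and Zbtb46 did not pass the test. These 6 of 9 tested members stand beside a background of 60.5% of all 14079 tested genes called in the same comparison (31.3% higher and 29.1% lower in EKO-labelled cells), so the share of members called is near that of any gene. For OVA pulsing no member was called, and 0% of all tested genes were.

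Depth was even, with library totals between 27116201 and 39698572 counts. For a gene with no count, up to 3 counts per library remain possible, or 0.0784 to 0.110 CPM. The mean level of Siglece was 155.5 CPM in CtrV libraries (SD 5.58, n = 6) and 200.9 CPM where the label is EKO (SD 26.7, n = 6), so the targeted mRNA was not lower where the labels give the knockout (log2 fold change 0.36, adjusted p = 0.000372), and the cells are called EKO-labelled for that reason. Siglec-E protein is not among these data, while the paper reports minimal or no Siglec-E expression for the clones that were pooled. The first principal component separated the lines (83.8% of the variance), and on the second one (7.11%) both EKO replicate 1 libraries stood apart, at 18.8 and 20.5 against -18.3 to -1.15 for the other 4 EKO libraries. EKO replicate 1 was the highest library of its group for 6 of the 9 members, unpulsed and OVA-pulsed alike. In OVA-pulsed CtrV cells replicate 1 was likewise highest, for 7 members. In unpulsed CtrV cells replicate 1 was highest for 4 members and replicate 3 for 4. Without both EKO replicate 1 libraries 7 of 9 members were called averaged over pulsing, 7 in OVA-pulsed and 6 in unpulsed cells. Of all 13997 genes tested in that setting, 7720, 5973 and 6199 were called. With all libraries 6 members were called in each comparison, beside 8512, 6619 and 6537 of 14079 genes. The 6 in unpulsed cells were not the same, since Spi1 gained a call (adjusted p = 0.0340) and Nfil3 lost it (adjusted p = 0.0517). Markers of other cell types were checked for. The 8 stromal markers summed to 190.6 to 226.1 CPM in CtrV and 317.7 to 374.9 CPM in EKO-labelled libraries, most of it Pecam1, which myeloid cells also express. Summed over 10 T and NK cell markers the level was at most 3.95 CPM in any library, over 7 B cell markers at most 1.10 CPM, and over 9 granulocyte and mast cell markers at most 0.0989 CPM, with Cd3e, Ebf1, S100a8 and S100a9 at 0 throughout. In bulk RNA, fewer cells with a transcript and less of it per cell cannot be told apart.

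Promoter sequence is shown for the 3 raised factors whose window holds a GAS element, the palindrome TTCNNNGAA bound by STAT proteins, which act downstream of cytokine receptors including that of GM-CSF. The windows are the 250 bases before a RefSeq transcription start (GRCm38.p6, read 5′ to 3′ on the strand of the gene), and the capitals mark each GAS element.
Irf8 (chr8:120736108-120736357, plus strand): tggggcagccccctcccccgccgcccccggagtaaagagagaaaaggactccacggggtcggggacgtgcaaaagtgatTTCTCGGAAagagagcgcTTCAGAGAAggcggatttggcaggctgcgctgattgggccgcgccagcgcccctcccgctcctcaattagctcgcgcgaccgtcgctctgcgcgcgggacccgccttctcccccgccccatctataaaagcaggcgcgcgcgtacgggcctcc
Batf3 (chr1:191098164-191098324, plus strand): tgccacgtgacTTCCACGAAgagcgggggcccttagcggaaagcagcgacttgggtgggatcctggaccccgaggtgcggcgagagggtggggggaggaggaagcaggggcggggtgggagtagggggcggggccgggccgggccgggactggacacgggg
Bcl6, upstream start (chr16:23988853-23989102, minus strand): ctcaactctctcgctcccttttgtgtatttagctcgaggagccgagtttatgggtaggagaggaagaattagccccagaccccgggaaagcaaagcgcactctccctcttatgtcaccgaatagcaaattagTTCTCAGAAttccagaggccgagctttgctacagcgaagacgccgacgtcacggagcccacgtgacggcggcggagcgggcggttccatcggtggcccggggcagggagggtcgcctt
Bcl6, downstream start (chr16:23981284-23981533, minus strand): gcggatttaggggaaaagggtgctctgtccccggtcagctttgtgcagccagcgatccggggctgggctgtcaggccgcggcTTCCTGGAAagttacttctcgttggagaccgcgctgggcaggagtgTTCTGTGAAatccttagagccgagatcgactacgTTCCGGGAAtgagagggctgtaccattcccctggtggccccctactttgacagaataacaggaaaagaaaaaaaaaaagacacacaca
The Batf3 window is printed for its first 161 bases only, since the rest is annotated as untranslated exon, and 74 of the printed bases belong to an exon of another Batf3 transcript. Of the Bcl6 windows, the upstream one holds no annotated gene and the downstream one lies inside the gene, in an intron. The Irf8 window lies within the annotated gene Gm20388 on the same strand.

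RefSeq promoters were found for 8 of the 10 members, 10 windows in all since Irf8 and Bcl6 have 2 each; Spi1 and Tcf4 had none in the table. GAS elements were present in 4 of these 10 windows, those printed above, and 2 of the 4 belong to the same gene, Bcl6. Irf8 has 2 of them, 171 and 153 bases before the start (TTCTCGGAA and TTCAGAGAA), Batf3 has 1 at 239 bases (TTCCACGAA), and Bcl6 has 1 before its upstream start at 118 bases (TTCTCAGAA) and 3 before its downstream start, at 168, 122 and 88 bases. Among all 32851 mouse promoter windows of this length, 7.02% hold a GAS element. The motifs were chosen with earlier results of these data known and GAS was picked for display. The shares are therefore a description and not a test. Nfil3, which was also raised, has none in its window, nor do Irf4, Id2, Zbtb46 or Klf4. Searched the same way on both strands, the NF-kB motif (GGG and CC set 5 bases apart) was present in 6 of the 10 windows (45.8% of all promoters), the E-box CANNTG in 7 (66.2%), and the AP-1 site TGANTCA in 1, that of Zbtb46 61 bases before the start (6.75%). A pair of IRF half-sites (GAAA and GAAA set 2 bases apart, 2.98%) and the cyclic AMP response element TGACGTCA (1.55%) were in none. None of the GAS matches overlaps a match to another motif searched, and a match of letters is not a measured binding site.

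Levels between genes were compared as CPM per kilobase of annotated exon. In CtrV cells the order was led by Id2, with a median of 192 CPM per kb over 6 libraries (186.8 to 198.3), above Spi1 at 153 (148.2 to 158.4). Irf4 followed at 45.9 (37.0 to 52.7) and Irf8 at 12.1 (11.3 to 16.6). Zbtb46 stood at 8.22 (6.62 to 9.05) and Bcl6 at 4.84 (4.43 to 6.07). The ranges of Nfil3 at 3.30 (2.77 to 3.95) and Batf3 at 1.89 (1.53 to 2.87) overlapped, whereas no other neighbours in this order did. Klf4 was lowest of the detected members at 0.561 (0.270 to 0.600). Set among all tested genes, the median of Id2 lay above 97.6% of them, that of Irf4 above 88.8%, that of Irf8 above 64.1% and that of Klf4 above 6.99%.

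In EKO-labelled cells the order changed. Spi1 led at 163.7 CPM per kb (140.1 to 175.0) and Id2 came next at 112 (104.4 to 118.9), without overlap. Irf4 at 44.9 (33.8 to 71.9) and Irf8 at 29.5 (25.2 to 41.8) now overlapped. Zbtb46 at 7.43, Bcl6 at 7.28, Batf3 at 5.50 and Nfil3 at 5.07 formed a row in which each range overlapped the next, and Klf4 was again lowest at 0.192 (0.130 to 0.232). The place of Irf8 and Irf4 depends on the length used: per kilobase of the longest annotated transcript, the EKO median was 60.1 for Irf8 (51.2 to 85.0) and 46.3 for Irf4 (34.8 to 74.0), so that the order turned, and Bcl6 (12.4) and Zbtb46 (11.9) also changed places. In CtrV cells that length kept the order, with Irf4 at 47.3 and Irf8 at 24.7.

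**Figure D1:**
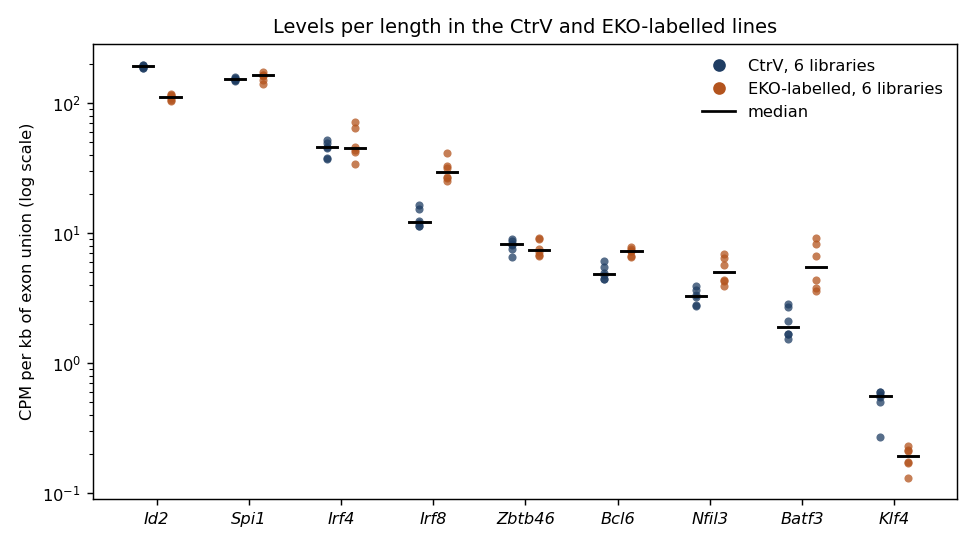
Level of the 9 detected members in CPM per kilobase of merged exons (log axis) in the 6 CtrV (blue) and 6 EKO-labelled (orange) libraries, with the median as a bar. Id2 leads in CtrV at 192 and Spi1 in EKO-labelled cells at 163.7, and the 2 lines are apart for Irf8 and overlap for Irf4.

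Irf8 (chr8:120736358-120756694, GRCm38, plus strand) encodes the IRF family factor required for cDC1 and pDC. Its level was 80.3, 86.9 and 108.5 CPM in the unpulsed and 117.4, 80.0 and 84.4 CPM in the OVA-pulsed CtrV libraries (replicates 1, 2 and 3). In EKO-labelled cells it was 225.2, 191.6 and 177.5 CPM unpulsed and 295.0, 189.5 and 233.8 CPM with OVA. All 6 EKO libraries lay above all 6 CtrV libraries. Among the 9 tested members 5 kept the lines apart in either direction, beside 35.6% of all tested genes (18.9% with EKO higher and 16.6% with EKO lower). Irf8 was 2.33-fold higher in EKO-labelled cells averaged over pulsing (log2 fold change 1.22, SE 0.11, adjusted p = 3.2e-06). The log2 fold change was 1.35 in OVA-pulsed cells (SE 0.15) and 1.09 in unpulsed cells (SE 0.15), and their difference of 0.25 did not pass the test (95% CI -0.21 to 0.72). Among tested genes, 93.3% had a smaller absolute log2 fold change.

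Batf3 (chr1:191097847-191108945, plus strand), the AP-1 family partner of IRF8 in cDC1, was expressed at a much lower level. CtrV libraries held 2.68, 3.36 and 4.29 CPM unpulsed and 4.59, 2.69 and 2.45 CPM with OVA, from 74 to 170 counts. EKO-labelled libraries held 13.3, 6.95 and 5.71 CPM unpulsed and 14.8, 6.07 and 10.6 CPM with OVA. The lines did not overlap, and both EKO replicate 1 libraries were the highest of their groups. Batf3 was 2.75-fold higher averaged over pulsing (log2 fold change 1.46, SE 0.21, adjusted p = 0.000123). Over all libraries the log2 fold change was 1.25 in unpulsed (adjusted p = 0.00591) and 1.67 in OVA-pulsed cells (adjusted p = 0.000749). Without EKO replicate 1 in both groups it was 1.19 averaged over pulsing (adjusted p = 0.00165), 0.96 in unpulsed (adjusted p = 0.0316) and 1.42 in OVA-pulsed cells (adjusted p = 0.00438).

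Nfil3 (chr13:52967209-52981073, minus strand) encodes a basic leucine zipper repressor that acts early on the cDC1 path. It measured 6.55, 5.69 and 7.99 CPM in unpulsed and 7.47, 5.61 and 6.82 CPM in OVA-pulsed CtrV libraries. In EKO-labelled cells it measured 11.6, 7.94 and 8.92 CPM unpulsed and 13.2, 8.64 and 14.0 CPM with OVA. The lines just overlapped, since EKO unpulsed replicate 2 lay below CtrV unpulsed replicate 3. Averaged over pulsing Nfil3 was 1.58-fold higher (log2 fold change 0.66, SE 0.09, adjusted p = 6.37e-05), with 0.83 in OVA-pulsed cells (adjusted p = 0.000213) and 0.49 in unpulsed cells (adjusted p = 0.00818). The call in unpulsed cells was lost without the replicate block (adjusted p = 0.0824), without replicate 1 (0.0954), without replicate 2 (0.0601) and without both EKO replicate 1 libraries (0.0517).

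Bcl6 (chr16:23965052-23988852, minus strand) encodes a zinc finger repressor. CtrV libraries gave 36.8, 33.1 and 29.7 CPM unpulsed and 40.7, 31.7 and 29.7 CPM with OVA, and EKO-labelled libraries gave 44.3, 52.6 and 48.5 CPM unpulsed and 50.7, 44.9 and 49.0 CPM with OVA. Every EKO library was above every CtrV library. Bcl6 was 1.45-fold higher averaged over pulsing (log2 fold change 0.53, SE 0.08, adjusted p = 0.000124), with nearly the same value in unpulsed (0.56) and OVA-pulsed cells (0.51). The call in OVA-pulsed cells was lost without replicate 3 (adjusted p = 0.0587). An antisense gene shares 21 of the 6700 exon bases of Bcl6.

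Id2 (chr12:25093799-25097140, minus strand), whose product keeps E proteins from binding DNA, fell. It measured 481.9, 456.5 and 463.8 CPM in unpulsed and 455.5, 473.0 and 483.5 CPM in OVA-pulsed CtrV libraries. In EKO-labelled cells the level was 258.4, 284.0 and 290.0 CPM unpulsed and 276.7, 254.4 and 267.4 CPM with OVA. The lines were far apart, and within each group the highest library exceeded the lowest by at most 1.12-fold, the tightest spread of the 9 members except for Spi1 in CtrV cells. Id2 fell by 0.79 on the log2 scale averaged over pulsing (SE 0.04, adjusted p = 6.06e-08), which is 1.73-fold lower, and the OVA-pulsed (-0.82) and unpulsed (-0.75) differences did not differ by the test (difference -0.07, 95% CI -0.25 to 0.11).

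Klf4 (chr4:55527143-55532466, minus strand), a zinc finger factor of monocytes and of part of the cDC2, was near the lower end of what was tested. It had 24 to 62 counts in CtrV and 13 to 23 counts in EKO-labelled libraries. CtrV levels were 1.83, 1.54 and 0.823 CPM unpulsed and 1.67, 1.75 and 1.82 CPM with OVA, and EKO levels were 0.659, 0.527 and 0.397 CPM unpulsed and 0.522, 0.643 and 0.706 CPM with OVA. The lines did not overlap, although CtrV unpulsed replicate 3 came close to the highest EKO library. Klf4 fell by 1.44 on the log2 scale averaged over pulsing (SE 0.20, adjusted p = 9.66e-05). In unpulsed cells the call was lost without replicate 2 (log2 fold change -1.33, adjusted p = 0.0560).

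**Figure D2:**
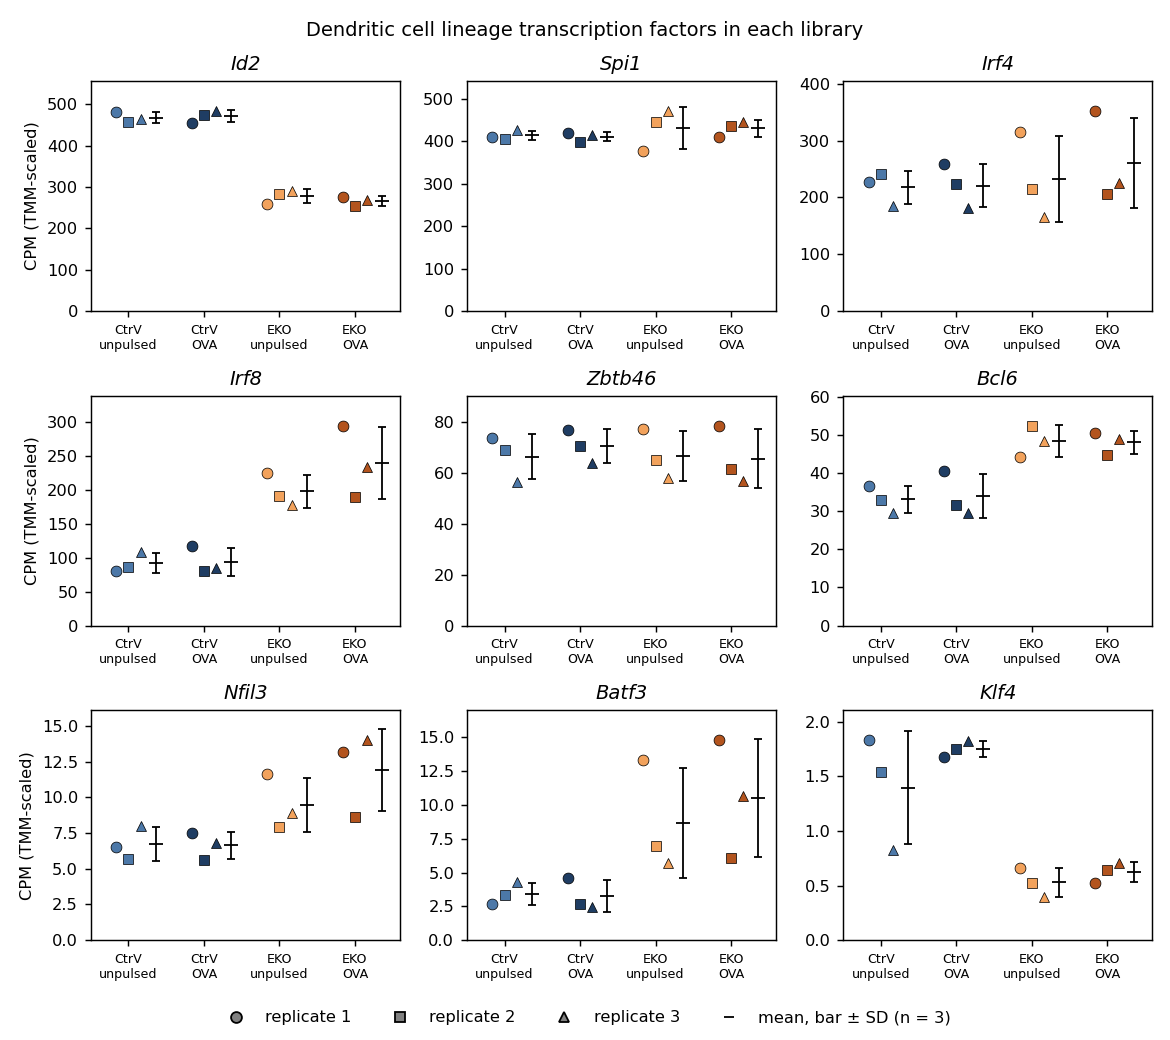
CPM of the 9 detected members in each of the 12 libraries, by group (points, shape by replicate number), with the mean and SD of 3 libraries beside them. The lines are apart for Irf8, Batf3, Bcl6, Id2 and Klf4, touch for Nfil3 at 7.94 and 7.99 CPM, and overlap for Irf4, Spi1 and Zbtb46.

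Irf4 (chr13:30749226-30766976, plus strand), the IRF of the cDC2 and of activated DCs, varied more among replicates than between lines. CtrV libraries gave 227.2, 240.6 and 185.5 CPM unpulsed and 258.2, 223.2 and 181.2 CPM with OVA. EKO-labelled libraries gave 315.8, 215.4 and 165.9 CPM unpulsed and 352.3, 206.3 and 225.3 CPM with OVA. Both replicate 1 libraries were the highest, and the other EKO libraries lay within or below the CtrV range. The log2 fold change averaged over pulsing was 0.14 (95% CI -0.08 to 0.35, adjusted p = 0.246) and -0.02 without both EKO replicate 1 libraries. A call appeared only in OVA-pulsed cells without EKO OVA replicate 2 (0.37, adjusted p = 0.0345).

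Spi1 (chr2:91082390-91115756, plus strand) gave 410.2, 405.1 and 426.9 CPM in unpulsed and 419.4, 399.5 and 414.4 CPM in OVA-pulsed CtrV libraries. EKO-labelled cells gave 377.6, 445.7 and 471.7 CPM unpulsed and 409.4, 436.7 and 446.8 CPM with OVA. Replicates 2 and 3 of EKO lay above all CtrV libraries, and replicate 1 did not. The log2 fold change was 0.06 (95% CI -0.04 to 0.16, adjusted p = 0.272) over all libraries and passed the test without both EKO replicate 1 libraries (0.13, adjusted p = 0.0142). In that setting Spi1 also passed in unpulsed cells (0.15, adjusted p = 0.0340).

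Zbtb46 (chr2:181387762-181459426, minus strand) gave 73.5, 69.2 and 56.3 CPM unpulsed and 77.0, 70.6 and 63.8 CPM with OVA in CtrV cells. In EKO-labelled cells it gave 77.2, 64.9 and 58.0 CPM unpulsed and 78.6, 61.6 and 56.7 CPM with OVA. The 2 lines covered the same range, and replicate 1 was the highest and replicate 3 the lowest library in all 4 groups. The log2 fold change was -0.05 (95% CI -0.14 to 0.04, adjusted p = 0.283), and in OVA-pulsed cells without both EKO replicate 1 libraries it passed the test (-0.18, adjusted p = 0.0334).

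Tcf4 (chr18:69343356-69689079, plus strand), the E protein of the pDC, had 0 counts in all 12 libraries over 27382 annotated exon bases. The gene was not tested, and a level of up to 0.110 CPM remains possible.

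Of the 9 tested members, 4 rose and 2 fell in unpulsed cells as well as in OVA-pulsed cells. These 2 comparisons share no library but come from the same lines and the same fit. Deviations from the group means of same-numbered unpulsed and OVA-pulsed libraries correlated at 0.711, 0.357 and 0.424 in EKO-labelled cells. In CtrV cells they correlated at 0.089, 0.185 and 0.385, so the 2 comparisons are not separate evidence. The background was 46.4% of tested genes called in unpulsed cells (24.5% higher, 21.9% lower) and 47.0% in OVA-pulsed cells (25.1% higher, 21.9% lower). Irf8, Batf3 and Klf4 also changed by at least 1 on the log2 scale, against 8.91% of all tested genes. The median log2 fold change of the 9 members was 0.14 averaged over pulsing, beside -0.00 over all tested genes. OVA pulsing itself called 0% of genes by edgeR in either line or in both pooled. In the pooled comparison, 314 genes had an unadjusted p under 0.05, DESeq2 called 1 gene and limma voom 0, and the log2 fold changes of the members ran from -0.02 for Id2 to 0.29 for Klf4. The dependence of the line difference on pulsing was also called for 0% of genes by edgeR, 0 by DESeq2 and 0 by limma voom, with 269 genes at an unadjusted p under 0.05, and the members ran from -0.12 for Zbtb46 to 0.43 for Batf3. Their intervals are wide for the low genes, for example -0.50 to 1.35 for Batf3.

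**Figure D3:**
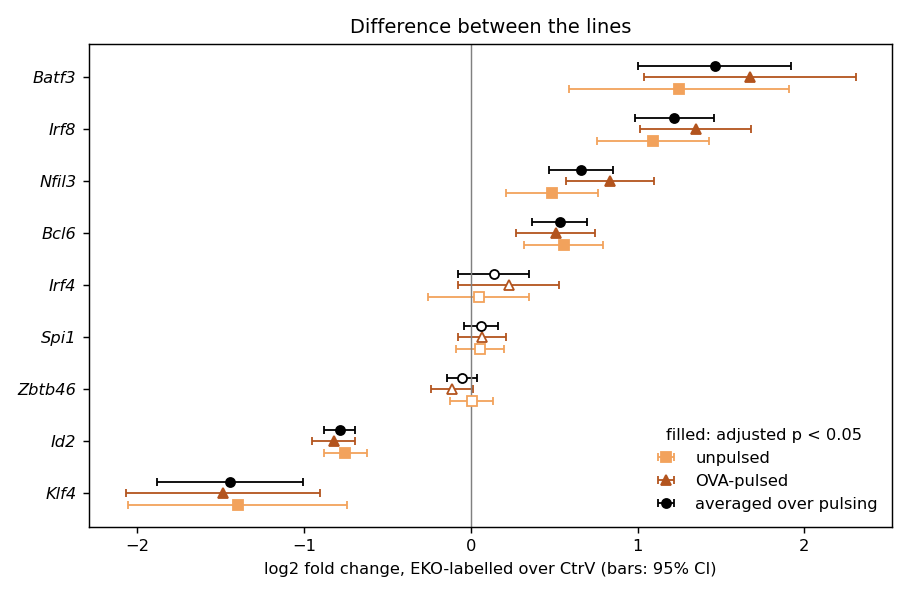
Log2 fold change of EKO-labelled over CtrV cells with its 95% confidence interval for the 9 tested members, in unpulsed cells (squares), OVA-pulsed cells (triangles) and averaged (circles), filled where the adjusted p was under 0.05. Batf3 (1.46), Irf8 (1.22), Nfil3 (0.66) and Bcl6 (0.53) lie above 0, Id2 (-0.79) and Klf4 (-1.44) below it.

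The balance between the cDC1 and cDC2 IRF was described as the ratio of Irf8 to Irf4 per kilobase, a measure chosen after the values were seen and given without a test. In CtrV libraries the ratio ran from 0.246 to 0.406 (median 0.283), and in EKO-labelled libraries from 0.496 to 0.744 (median 0.628). On this scale Irf4 exceeded Irf8 in all 12 libraries, whereas per kilobase of the longest transcript Irf8 exceeded Irf4 in 5 of 6 EKO libraries (ratio 0.980 to 1.47) and in 0 of 6 CtrV libraries (0.486 to 0.803). In CPM without a length, Irf8 exceeded Irf4 in 2 of 6 EKO libraries. The ratios of the 2 lines did not overlap on any of these scales, since the length multiplies all libraries alike. Replicate 1, the highest library of its EKO group for both mRNAs, had the lowest EKO ratios at 0.496 unpulsed and 0.582 with OVA, and these still lay above every CtrV library.

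The list counts that follow stand beside the background of 31.3% of all tested genes higher and 29.1% lower in EKO-labelled cells averaged over pulsing. Among other IRFs and the partners that IRF8 and IRF4 bind, 11 of 13 listed genes were tested, 6 rose and 1 fell. Irf7, the interferon-induced IRF needed by pDC, ranged over the 6 libraries of a line from 32.1 to 66.4 CPM (CtrV) and from 122.2 to 321 CPM (EKO), with a log2 fold change of 2.41 (adjusted p = 1.16e-05). Batf2, which can stand in for BATF3, ranged from 0.331 to 0.679 against 2.12 to 2.41 CPM (log2 fold change 2.26, adjusted p = 3.46e-07). Jun, which pairs with BATF proteins, fell by 0.18 on the log2 scale (adjusted p = 0.00281), a call lost without the replicate block (adjusted p = 0.195). Batf also rose (0.52, adjusted p = 0.000403), as did Junb (0.49, adjusted p = 0.000471), and Jund stood at -0.09 without a call (adjusted p = 0.155), which it gained with upper-quartile scaling (-0.13, adjusted p = 0.0359) and without replicate 3 (-0.14, adjusted p = 0.0475). The median log2 fold change of the 11 genes was 0.21.

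Of the helix-loop-helix partners of ID2 and TCF4, 4 of 5 were tested, 3 rose and 1 fell. Id3, another ID inhibitor, ranged from 1.67 to 3.21 CPM in CtrV and from 4.21 to 8.09 CPM in EKO libraries (log2 fold change 1.30, adjusted p = 1.88e-05), opposite in direction to Id2 but at a far lower level. Tcf12, which encodes the E protein HEB, ranged from 86.2 to 91.2 against 112.2 to 121 CPM (0.40, adjusted p = 2.84e-06). Tcf3, which encodes E2A, fell by 0.17 on the log2 scale (adjusted p = 0.00100). Id1 rose by 0.35 (adjusted p = 0.0284), a call lost by DESeq2 (adjusted p = 0.0904) and when single libraries were left out. Id4 was at 0 in every library.

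**Figure D4:**
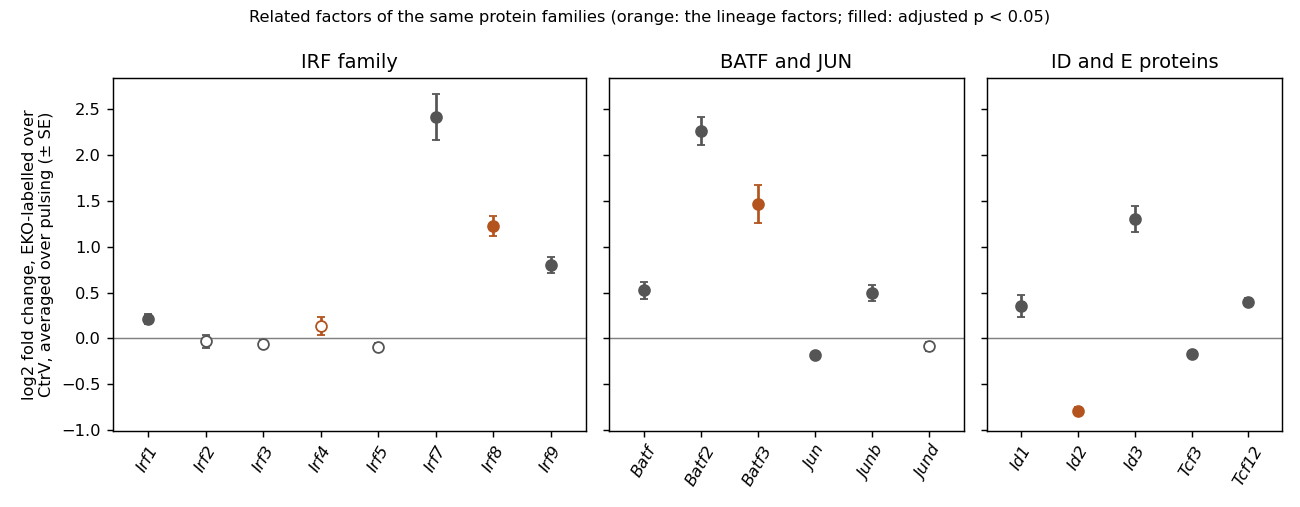
Log2 fold change of EKO-labelled over CtrV cells averaged over pulsing (points, with SE) for tested members of the IRF, BATF and JUN, and ID and E protein families, the lineage factors in orange and filled where the adjusted p was under 0.05. Irf7 (2.41) and Batf2 (2.26) lie above Irf8 and Batf3, and Id2 (-0.79) lies below 0 while Id1 (0.35) and Id3 (1.30) lie above it.

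Of the other conventional DC factors 22 of 23 were tested, and 16 were higher, 3 lower and 3 not called, beside 31.3% higher and 29.1% lower over all tested genes, with a median log2 fold change of 0.46 beside -0.00. Nr4a3, a nuclear receptor of migrating DCs, rose by 1.81 (adjusted p = 9.5e-05), and with Batf2 it led the rise. Tbx21, which encodes T-bet, ranged from 51.9 to 72.7 CPM in CtrV and from 1.41 to 2.51 CPM in EKO libraries (log2 fold change -4.99, adjusted p = 3.91e-13). Mycl, the MYC family member of cDC1, ranged from 28.2 to 31.7 against 5.98 to 10.3 CPM (-1.94, adjusted p = 5.76e-08). Of the pDC factors 7 of 9 were tested, 4 rose and 1 fell. Runx2 rose by 2.69 (adjusted p = 5.06e-09) and Irf7 as above, and Cbfa2t3, a corepressor, fell by 1.24 on the log2 scale (adjusted p = 1.87e-07). Stat3, Zeb2, Batf and other genes stand in more than 1 of these lists.

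Corepressors that work with BCL6 and related zinc finger proteins had 6 of 6 tested: 2 rose, Tbl1x (0.64) and Bcor (0.24), and 2 fell, Hdac3 (-0.16) and Tbl1xr1 (-0.12, adjusted p = 0.0450), the last a call lost by DESeq2 (adjusted p = 0.0721), without the replicate block (0.247) and in most settings that leave out libraries. Progenitor and granulocyte factors were mostly at or near 0, with 5 of 12 tested, 1 risen and 3 fallen. Myb, a factor of cycling progenitors, had 89 to 129 counts in CtrV libraries and 0 or 1 count in EKO-labelled ones, and Meis1 fell by 3.23 on the log2 scale (adjusted p = 3.36e-09). Fli1 rose by 0.40 (adjusted p = 1.14e-05). Monocyte and macrophage factors had 12 of 15 tested, 8 risen and 4 fallen, led by Nr4a1 (2.20) and Maf (2.04) upward and Egr2 (-1.62) and Egr1 (-0.86) downward, Egr1 losing its call without the replicate block (adjusted p = 0.0558). Maf and Nr4a1 were low, at most 2.38 CPM in any library.

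The labelled cell type was checked against subset markers. Genes shared by DCs were high in both lines, with a summed level of 28029 to 30568 CPM over 10 pan-DC markers in CtrV and 28138 to 29955 CPM in EKO-labelled libraries, of which H2-Aa, H2-Ab1, H2-Eb1 and Cd74 make up most, although Kit was at or near 0. Flt3, the receptor of the DC growth factor FLT3L, was low (0.996 to 1.92 CPM in CtrV) and rose by 1.33 (adjusted p = 0.00282, and by 0.64 with adjusted p = 0.0149 without both EKO replicate 1 libraries), and Ccr7, the receptor for migration to lymph nodes, rose by 1.34 (adjusted p = 0.00829, and 0.0609 without both EKO replicate 1 libraries), whereas Itgax, which encodes CD11c, fell by 0.23 on the log2 scale. The defining cDC1 markers Clec9a and Cadm1 were at or near 0 in both lines, and Xcr1 was 0.179 to 0.397 CPM in CtrV and 0.862 to 1.37 CPM in EKO-labelled libraries. Of 8 tested cDC1 markers 2 rose, Xcr1 (1.77) and Tlr11 (0.32), and 5 fell, led by Itgae (-5.86), which encodes CD103, and Cd24a (-1.59). The summed level of the 12 was 1752 to 2169 CPM in CtrV and 1302 to 1436 CPM in EKO-labelled libraries. The rise of Irf8, Batf3 and Nfil3 stood beside a lower summed level of the 12 cDC1 markers and a higher level of Xcr1.

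Markers of cDC2 had 8 of 11 tested, with 4 risen, Clec4a2 (2.44) and Cd209a (2.24) the most, and 3 fallen, with Clec10a (-0.38) and Mgl2 (-0.35) first. Their summed levels overlapped between the lines, at 1603 to 1761 CPM in CtrV and 1647 to 1827 CPM in EKO-labelled libraries, and Esam was at or near 0. Only 3 of 11 pDC markers were tested, and all 3 rose, among them the interferon-inducible Bst2 (1.35) and Tlr9 (0.85), while Siglech and Ly6d were at or near 0 like Tcf4. Of the macrophage and monocyte markers 9 of 11 tested rose and 0 fell, Lyz2 (2.14) and Cx3cr1 (1.94) the most. The summed level of the 15 was 2296 to 2592 CPM in CtrV and 3345 to 3930 CPM in EKO-labelled libraries. Mrc1, the gene of the mannose receptor, was at 0 in all libraries and Apoe below 1 CPM. The paper reports lower mannose receptor expression on EKO than on control cells. How that relates to the absent mRNA was not tested. Stromal markers rose in 3 of 3 tested, by Pecam1 (0.86) and Cdh5 (0.89) foremost, with Col1a2 and Col3a1 at 0, and of the erythroid and megakaryocyte markers Pf4 rose (1.20) and Itga2b fell (-0.63). The part of these markers in the differences of the members was not tested.

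The genes most like each member over the 12 libraries were found by Pearson's r of log2 CPM, a description in which all points share library depth and the 2 lines. For Irf8 they were Rilpl2 (0.996) and Blnk (0.994), for Batf3 Adora2a (0.994) and Mreg (0.993), for Bcl6 Klhl24 (0.984) and N4bp1 (0.983), and for Nfil3 Tmem120b (0.968) and Mindy1 (0.965). For Id2 they were Gsdmd (0.994) and Itgae (0.994), and for Klf4 Cdc42bpg (0.978) and Gemin5 (0.976). These values mostly trace the difference between the lines: 1122 genes had an r over 0.9 with Irf8 and 1249 with Id2. Members that did not separate the lines had few such genes, 52 for Irf4 led by Nectin1 (0.977) and Ric1 (0.962), 27 for Zbtb46 led by Zfp574 (0.955) and Ahrr (0.950), and 10 for Spi1 led by Stard3 (0.968) and Gm15544 (0.932).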

How the data were processed

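RNA of 12 libraries was sequenced by the authors from a stranded mRNA preparation. The authors deposited 1 table of unnormalized read counts for each gene. Per the labels and the methods, reads were aligned to mm10 with STAR and counted on merged exons with featureCounts (whether by strand is not given in the sources used here). Reads that fit several places were given 1 location, so counts of similar genes can mix.

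Groups and replicate numbers came from the sample titles, and no source says that samples with 1 number shared a day or culture, so p-values measure the spread between these samples, which may be technical. Totals ran from 27116201 to 39698572 counts. Of 55401 genes, 28881 had a count and 14079 passed the filter (log2 CPM over 0, 2 or more libraries), and these were tested with edgeR 4.0.16 (R 4.3.3), TMM scaling and a quasi-likelihood fit on group and replicate over all 12 libraries, with Benjamini-Hochberg adjustment over all tested genes and a threshold of 0.05. The deviations of same-numbered OVA-pulsed libraries correlated between lines at 0.450, 0.295 and 0.298, and those of unpulsed ones at 0.066, -0.009 and 0.271. Every OVA-pulsed value was above 0.1, while of the unpulsed ones only that of replicate 3 was. With 3 values per comparison, whether the numbers pair the libraries cannot be settled. The main fit kept the replicate block for all 12 libraries, so it also enters the unpulsed and averaged comparisons. A block shared by both lines does not take up a replicate effect of 1 line. The averaged comparison treats the libraries of a line as independent beyond the block. CPM use the TMM-scaled totals, and lengths and positions come from GENCODE vM21 (GRCm38), which may differ from the authors' annotation. Log2 CPM for the correlations and principal components (25% most variable genes) used a prior count of 3. The fit was tested on simulated counts with few changed genes and no replicate effect, which does not measure its error rate on these data. Alternatives were RLE and upper-quartile scaling, other count filters, no replicate block, DESeq2 1.42.0, limma voom 3.58.1, the compared libraries alone and leaving out libraries. Bias-adjusted deviances and leaving out both EKO replicate 1 libraries were chosen after seeing the data. Beyond the 10 members and Siglece, the genes named are up to 2 risen and 2 fallen called genes of each list and the 2 genes most like each member. Defining markers at or near 0, Batf, Junb, Jund, Id1, Id4, Stat3, Zeb2 and the class II genes were named after their values were seen. The members, lists and motifs were chosen with earlier results of these data known. No other experiment of the study was analysed here.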

Additional observations from a re-analysis of the deposited data

How the results depend on the processing

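The 6 calls averaged over pulsing kept their direction and stayed under the threshold in all alternatives run. No called difference of a member changed direction. In unpulsed cells Nfil3 and Klf4, and in OVA-pulsed cells Bcl6, lost a call in the settings given with their values. Without replicate block, 7477 genes were called averaged over pulsing, 5413 in OVA-pulsed and 5337 in unpulsed cells, against 8512, 6619 and 6537 with it. Unpulsed replicates of the 2 lines did not all deviate together, so pairing by number is not shown there, although the main fit kept the block. Nfil3 in unpulsed cells lost its call without the block (adjusted p = 0.0824), and no other member changed its call.

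DESeq2 called 1 gene for OVA pulsing. Leaving out libraries gave 0 to 5 genes for the dependence on pulsing (5 without replicate 1) and 4403 (without replicate 3) to 6993 genes for OVA-pulsed cells. Upper-quartile scaling lowered the share of higher calls from 51.8% to 43.3% averaged over pulsing.

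Differences that were not called changed sign in some settings, and the cause was not tested. With upper-quartile scaling Irf4 in unpulsed cells was -0.0025, Zbtb46 in unpulsed cells -0.044 and Bcl6 for pulsing -0.0046 on the log2 scale, and with no expression filter the dependence of Spi1 was -0.0017. Leaving out single libraries or 1 replicate number, the line difference ran for Irf4 from -0.024 to 0.26 averaged over pulsing, and in unpulsed cells for Irf4 from -0.16 to 0.17 and Zbtb46 from -0.026 to 0.050. The dependence on pulsing ran for Batf3 from -0.19 to 0.95, Bcl6 from -0.18 to 0.084, Irf8 from -0.0087 to 0.47, Klf4 from -0.34 to 0.20 and Spi1 from -0.071 to 0.072. The pulsing difference ran for Batf3 from -0.15 to 0.23, Bcl6 from -0.067 to 0.088, Irf8 from -0.028 to 0.23, Klf4 from -0.0059 to 0.58 and Spi1 from -0.045 to 0.024. Without both EKO replicate 1 libraries the values were Irf4 -0.024 (averaged), Irf4 -0.12 (unpulsed), Zbtb46 -0.032 (unpulsed), Spi1 -0.044 (dependence), Klf4 0.22 (dependence) and Bcl6 -0.036 (pulsing). Beyond the members, 47 genes were followed, averaged over pulsing: the called genes named from the lists, Siglece, Batf, Junb, Jund and Id1. Of their 1120 values, 1087 kept direction and side of the threshold. The remaining named genes, such as Rilpl2 and Blnk, were not followed in these settings.

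The intervals of Klf4 (13 to 62 counts per library) and Batf3 (74 to 566) are the widest. Within groups the CV of Batf3 was 23.5% to 47.0%, and the part of depth in this was not tested. With 3 libraries per group, a difference that missed the threshold does not show equal levels.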
